A study of Mus musculus with 2 samples.

Results

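Telomere-proximal bins are the 50 kb bins in the last 3 Mb of each of the 19 mouse autosomes, the end of the chromosome that lies away from the centromere. They were taken by position alone from the deposited bin table, with each chromosome's end set by its last bin. Of the 1140 bins in these 19 end zones, 1099 held at least 1 contact in either library and were used, out of 47998 autosomal bins with a contact and 54521 bins in the whole table. The other 41 bins were empty, and 2 to 3 empty bins per zone included the very last ones. Each end zone was set against the middle 3 Mb of the same chromosome, whose 1140 bins all held contacts.

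The contacts come from Foxa2 HiChIP of livers from wildtype mice. The treated group received GW4064, an agonist of the bile acid receptor FXR, and the control group only the vehicle of propylene glycol and Tween 80, with 1 library each. Each treatment was a single oral gavage, and livers were taken 4 h later. The sources used here do not say whether a library pools several animals, nor their age, sex or strain. HiChIP joins DNA ends that lie close together in fixed nuclei and then enriches joined pieces bound by a chosen protein, here Foxa2, a forkhead transcription factor that opens liver chromatin. Because contacts are not expression, the liver label cannot be checked against the expression of marker genes in these files.

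Mouse autosomes have their centromere at one end, so each has a single free long-arm end, capped by telomere repeats that reference assemblies do not contain in full. The DNA next to the cap often holds duplicated gene families whose copies sit at several chromosome ends. In interphase nuclei each chromosome keeps its own territory, and most contacts stay inside it, while contacts between chromosomes depend on where each stretch lies relative to the territory's surface and to nuclear bodies.

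The genes nearest the caps illustrate such duplication, and their promoters are shown because near-identical copies at several ends bear on how contacts between ends can be read. The last protein-coding gene in the RefSeq table (build GRCm38.p6) was Gm32856 on chromosome 8, Gm20939 on chromosome 17, Gm9631 on chromosome 11 and B230307C23Rik on chromosome 16, all predicted or poorly described genes. The 250 bases before their start sites follow, 5′ to 3′, with capitals marking stretches of 12 or more letters found in at least 1 of the other 3 promoters.
Gm32856, chr8:129263363-129263612, + strand: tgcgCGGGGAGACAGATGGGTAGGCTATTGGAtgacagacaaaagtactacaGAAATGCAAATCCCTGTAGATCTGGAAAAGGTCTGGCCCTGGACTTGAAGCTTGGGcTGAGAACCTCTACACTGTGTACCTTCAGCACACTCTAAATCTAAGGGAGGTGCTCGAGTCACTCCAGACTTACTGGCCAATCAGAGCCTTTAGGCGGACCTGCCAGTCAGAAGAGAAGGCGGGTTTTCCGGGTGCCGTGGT
Gm20939, chr17:94864651-94864900, + strand: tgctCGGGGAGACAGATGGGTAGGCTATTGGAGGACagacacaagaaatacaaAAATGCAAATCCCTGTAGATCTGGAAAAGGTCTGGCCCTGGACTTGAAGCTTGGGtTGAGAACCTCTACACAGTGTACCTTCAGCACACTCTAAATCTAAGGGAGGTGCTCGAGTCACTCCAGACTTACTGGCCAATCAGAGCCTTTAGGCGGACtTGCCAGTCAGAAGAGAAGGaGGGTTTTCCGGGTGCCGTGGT
Gm9631, chr11:121925329-121925578, - strand: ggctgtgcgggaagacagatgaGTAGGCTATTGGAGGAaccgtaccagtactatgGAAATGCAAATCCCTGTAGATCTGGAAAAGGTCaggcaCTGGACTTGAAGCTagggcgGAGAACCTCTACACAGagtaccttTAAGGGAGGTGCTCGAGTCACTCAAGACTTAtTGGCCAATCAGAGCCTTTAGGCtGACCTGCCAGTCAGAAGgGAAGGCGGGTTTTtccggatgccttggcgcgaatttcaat
B230307C23Rik, chr16:97997086-97997335, + strand: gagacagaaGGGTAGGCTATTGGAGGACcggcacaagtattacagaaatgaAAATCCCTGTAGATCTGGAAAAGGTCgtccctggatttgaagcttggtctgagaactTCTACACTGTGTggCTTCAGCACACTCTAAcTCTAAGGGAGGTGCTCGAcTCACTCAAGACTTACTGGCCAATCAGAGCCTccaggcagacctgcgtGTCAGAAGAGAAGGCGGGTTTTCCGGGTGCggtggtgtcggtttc
The shared stretches covered 225 of the 250 bases of the Gm32856 promoter, 226 of Gm20939, 162 of Gm9631 and 152 of B230307C23Rik. These promoters lie 138, 122, 157 and 210 kb from the ends of their chromosomes.

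Across all autosomes, 130 of 16457 genes with a promoter in the table had one that shared at least 40 of its 239 possible runs of 12 letters with a promoter on another autosome. In the end zones it was 12 of 560 genes, or 2.14%, against 1 of 340 genes in the middle windows and 0.790% over all autosomes. Of those 12 genes, 8 resembled a gene in the end zone of another autosome. The 12 are the 4 above with Gm40035 on chromosome 2, Hexdc on chromosome 11, and a set of 6, Gm14496 on chromosome 2 and the pheromone receptor genes Vmn2r84, Vmn2r85, Vmn2r86 and Vmn2r87 on chromosome 10 and Vmn2r129 on chromosome 4. Reads from such copies can be placed on the wrong chromosome. Contacts are therefore given below with and without the bins of all 130 such genes, of which 13 bins lie in the end zones.

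The end zones also carry 42 of the 919 autosomal microRNA hairpins in the RefSeq table, on 13 chromosomes. MicroRNAs are short RNAs that silence messages through the seed, bases 2 to 8, printed here in capitals. A pair of clusters lies within the last 0.5 Mb, in the end zones of chromosomes 1 and 4. Contacts of their bins with other end zones were not counted separately. On chromosome 1 the cluster holds Mir29b-2 and Mir29c, which share the seed AGCACCA.
mmu-miR-29b-3p: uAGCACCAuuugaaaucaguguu
mmu-miR-29c-3p: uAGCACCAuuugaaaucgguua
On chromosome 4 the cluster holds Mir200b and Mir429, which share the seed AAUACUG, and Mir200a with the seed AACACUG. The miR-200 family is known for keeping epithelial cells from changing into mesenchymal ones.
mmu-miR-200b-3p: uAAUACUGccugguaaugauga
mmu-miR-429-3p: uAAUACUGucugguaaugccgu
mmu-miR-200a-3p: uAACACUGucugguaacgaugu
The bin of the miR-29 cluster, 435 kb from the end of chromosome 1, held 1025 contacts in the vehicle library and 1072 in the GW4064 library. The bin of the miR-200 cluster, 453 kb from the end of chromosome 4, held 703 and 632. With total contacts set equal, the GW4064 to vehicle ratio on the log2 scale was -0.27 (95% interval -0.39 to -0.14) for the first and -0.49 (-0.64 to -0.33) for the second.

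Sequencing gave 22686004 contacts with vehicle and 29003442 with GW4064. A used autosomal bin had a median of 806 contacts in the vehicle library and 1019 in the GW4064 library. Contacts between chromosomes made up 25.6% and 21.4% of the contact ends in autosomal bins. Between autosomes, 99.6% of the bin pairs with a contact held exactly 1 contact in each library, so that only sums over many bin pairs carry information. With 1 library per group there is no replicate check of any difference between them, and all intervals here are exact 95% intervals that cover counting error only.

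The end zones differed in gene content. They held 706 protein-coding genes, with a median of 23 per zone, against 16 in the middle windows. The end zone had more genes than the middle in 11 of 19 chromosomes. The fewest were the 3 genes of chromosome 17 and the most the 127 of chromosome 10. The chromosome 10 zone holds a cluster of 58 olfactory receptor genes, and that of chromosome 15 holds 26 keratin genes and 9 genes of the Hoxc cluster, which patterns the body axis. The zone of chromosome 7 holds 4 genes of the Mrgpr family, receptors of itch and pain neurons.

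Promoters in the end zones were like others in base content. Their median GC content was 57.2%, the same as in the middle windows and close to the 56.0% of all autosomal promoters. The letters TTAGGG, the unit of the telomere repeat, stood on either strand in 9.05% of the 674 end zone promoters, 8.47% of those in the middle windows and 9.33% of all 20085 autosomal promoters. The letters TGTTTAC, a core of the forkhead motif that Foxa proteins bind, stood in 3.56%, 3.15% and 2.64%. These shares describe the letters in windows of 250 bases and say nothing about binding.

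Total coverage was lower in most end zones than in the middle of the same chromosome. The mean number of contacts per bin was lower at the end in 14 of 19 chromosomes in the vehicle library, with a median ratio of 0.908, and in 13 of 19 in the GW4064 library, with a median ratio of 0.840. The ratio ranged from 0.612 to 1.47 in the vehicle library. Chromosome 4 had the lowest, with 572 contacts per bin at its end and 935 in its middle in the vehicle library and 554 and 1340 in the GW4064 library. Chromosome 15 (0.769 and 0.598) and chromosome 7 (0.770 and 0.610) came next. The highest ratios were those of chromosome 17 (1.47 and 2.01), chromosome 14 (1.17 and 1.34) and chromosome 13 (1.02 and 1.18). The zones of chromosomes 4, 15 and 7 hold 69, 84 and 40 genes, and the zone of chromosome 17 only 3 against 73 in its middle. The zone with the most genes, on chromosome 10 (127 against 2 in its middle), had ratios near the medians, 0.931 and 0.840.

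Contacts with other chromosomes went the opposite way. Counted alone, they were more frequent per bin at the end than in the middle in all 19 chromosomes in each library, with a median ratio of 1.27 in the vehicle library and 1.32 in the GW4064 library. Among all 3 Mb windows of its chromosome by this count, the end zone was first in 4 chromosomes (vehicle) and 3 (GW4064). In 8 chromosomes in each library it was among the first 3. The end of chromosome 4 ranked only 31 and 45 of 51, and that of chromosome 11 ranked 20 and 25 of 40. As a share of all contacts of the zone, contacts with other chromosomes made up a median of 32.5% at the ends and 25.0% in the middles in the vehicle library, and 29.4% and 20.7% in the GW4064 library. The share was higher at the end in 18 of 19 chromosomes in both libraries. Chromosome 17 was the exception in both, with 27.1% at its end and 33.0% in its middle in the vehicle library and 22.99% and 28.6% in the GW4064 library. In each of the 19 chromosomes the intervals of end and middle did not overlap.

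The zones with the largest shares between chromosomes in the vehicle library were those of chromosomes 16 (39.95%, interval 39.5% to 40.4%), 7 (39.6%) and 19 (37.6%). The smallest were those of chromosomes 3 (24.1%, interval 23.7% to 24.5%), 13 (26.9%) and 17 (27.1%). In the GW4064 library chromosomes 16 (36.6%), 7 (35.7%) and 11 (35.7%) were highest, and chromosomes 3 (21.3%), 17 (22.99%) and 13 (24.2%) lowest. The end zone was the first by this share among all 3 Mb windows of its chromosome in 2 of 19 chromosomes in the vehicle library and 5 in the GW4064 library, and among the first 3 in 10 chromosomes in each.

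**Figure D1:**
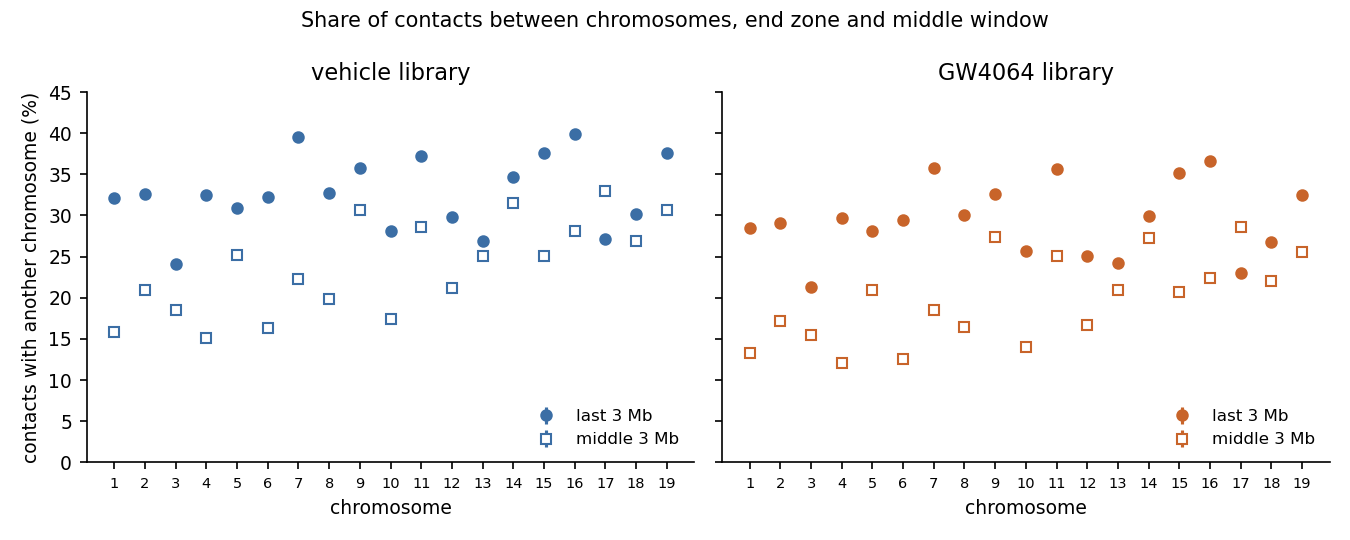
Share of contacts made with another chromosome (%, vertical axis) for the last 3 Mb (filled circles) and the middle 3 Mb (open squares) of each autosome. The vehicle library is on the left and the GW4064 library on the right, with 95% intervals that are shorter than the symbols. The filled circle lies above the open square in 18 of 19 chromosomes in both panels, chromosome 17 being the exception.

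The share between chromosomes also rises with gene number, so windows were compared within classes of gene number. Among windows with 40 or more genes, the median share was 35.7% in the 7 end zones and 29.2% in the 146 windows lying over 12 Mb from the end (vehicle library). For 20 to 39 genes it was 32.3% and 27.2%, for 10 to 19 genes 32.1% and 24.9%, and for 0 to 9 genes, with only 2 end zones, 28.6% and 21.7%. In the GW4064 library the end zones were also higher in each of the 4 classes, for example 32.6% against 24.9% with 40 or more genes. Within the zones the share was largest at the tip. In the last 0.5 Mb it was 37.2% in the vehicle library and 33.2% in the GW4064 library, and from 2.5 to 3 Mb it was 31.3% and 27.4%.

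A bin next to the end has neighbours on 1 side only, and contacts over 1 to 10 Mb made up a smaller share at the end than in the middle in all 19 chromosomes, with medians of 7.60% and 14.6% in the vehicle library. Per bin pair that exists, contacts inside the zones at 50 to 250 kb were about as frequent as in the middle windows, with median ratios of 0.997 in the vehicle library and 0.981 in the GW4064 library. At 300 to 1000 kb they were less frequent at the end in 12 of 19 chromosomes, with a median ratio of 0.892, and in the GW4064 library in 13 of 19, with a ratio of 0.808. The ratios at that distance ranged from 0.403 to 2.13 in the vehicle library, so chromosomes differed widely.

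End zones of different autosomes met more often than their coverage gives. Over the 171 pairs of autosomes, the expected number was computed inside each pair of chromosomes from the contacts of each zone with the whole of the other chromosome, so that a preference of whole chromosomes for each other does not enter. In the vehicle library 5370 contacts joined end zones where 3477 were expected, a ratio of 1.55 (1.504 to 1.586). In the GW4064 library 6544 were seen and 3770 expected, a ratio of 1.74 (1.69 to 1.78). Middle windows met each other at 0.980 (0.940 to 1.02) and 0.995 (0.955 to 1.04). End zones met middle windows at 0.968 and 0.990 of expectation, and met the first 3 Mb with contacts next to the centromere at only 0.806 and 0.813. Those centromere-side zones met each other at 1.72 and 1.70, so an excess between like positions was not particular to the telomere side.

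The excess involved each zone. Taken with the other 18 zones together, each of the 19 end zones had an interval above 1 in both libraries, with medians of 1.56 in the vehicle library and 1.83 in the GW4064 library, and no middle window had one. The lowest ratio in the vehicle library was that of chromosome 17 (1.24), which also had the fewest genes, and the highest that of chromosome 6 (1.89). In the GW4064 library the range ran from 1.26 on chromosome 13 to 2.22 on chromosome 11. It did not rest on a few bin pairs: the 5370 contacts in the vehicle library came from 5315 bin pairs, and no pair held more than 3 contacts in either library.

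The excess was concentrated at the very tip. Bins in the last 1 Mb met bins in the last 1 Mb of other autosomes at 2.85 times expectation (2.68 to 3.02, 1118 contacts) in the vehicle library and 3.35 times (3.18 to 3.52, 1555 contacts) in the GW4064 library. Bins from 2 to 3 Mb met their counterparts at 1.22 and 1.21. Whole windows from 3 to 6 Mb met each other at 1.16 and 1.24, and windows from 9 to 12 Mb at 1.05 and 1.09. The values did not go on falling with distance, since windows from 15 to 18 Mb stood at 1.14 in each library and those from 21 to 24 Mb at 1.12 and 1.15.

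**Figure D2:**
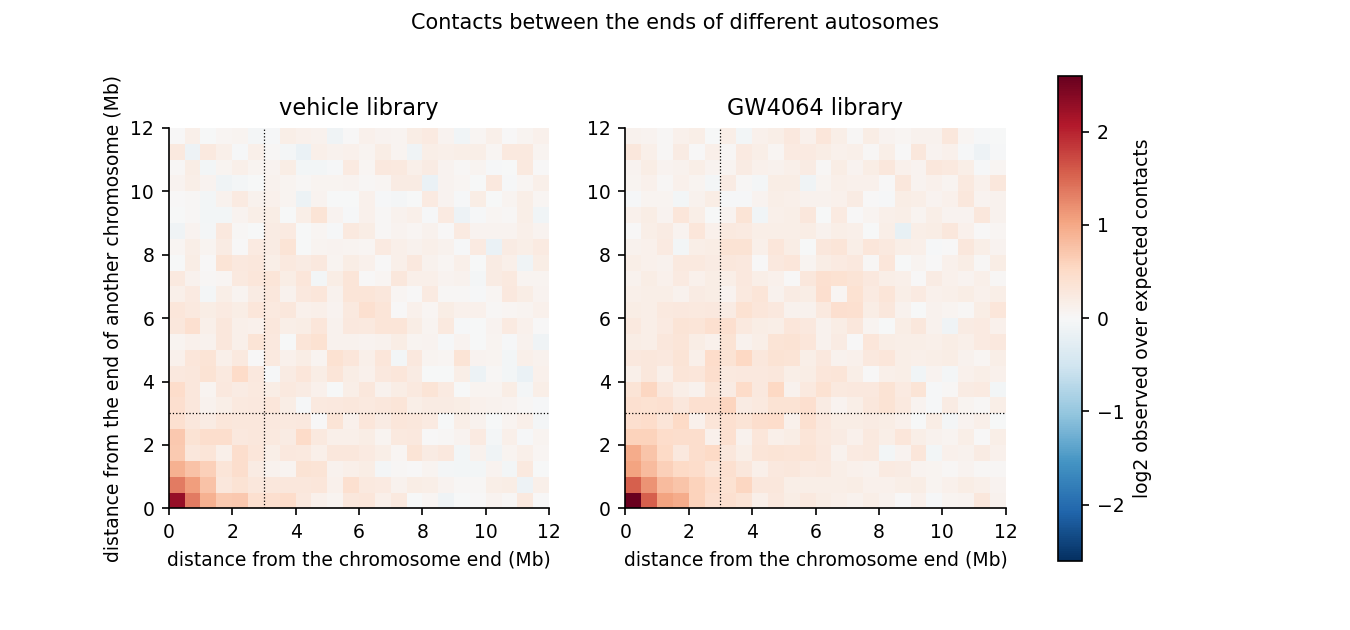
Observed over expected contacts between different autosomes (log2, colour), by distance from the end of each chromosome in steps of 0.5 Mb, summed over the 171 pairs, vehicle library on the left and GW4064 library on the right; dotted lines mark 3 Mb. The darkest colour lies in the corner where both partners are within 1 Mb of their ends, where the ratio was 2.85 and 3.35, and fades towards 3 Mb.

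The partners of the end zones along whole chromosomes followed a gradient. In the vehicle library end zones met the first 5% of other autosomes at 0.814 of expectation and the last 5% at 1.37, and in the GW4064 library at 0.810 and 1.502. Centromere-side zones showed the mirror image, and the profile of the middle windows stayed near 1.

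**Figure D3:**
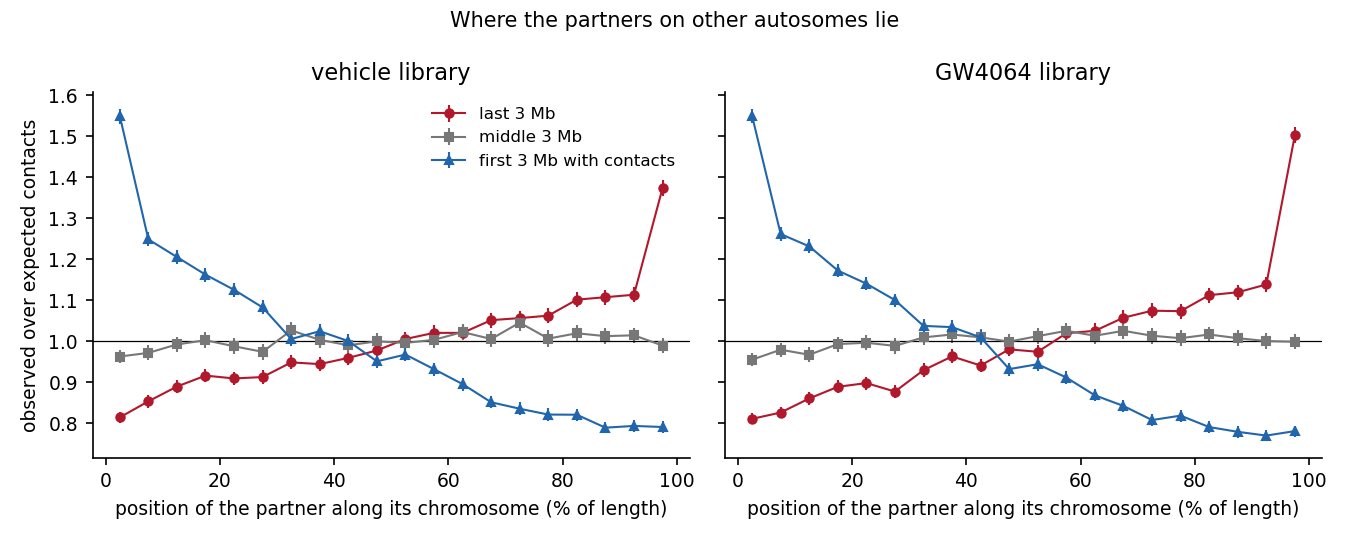
Observed over expected contacts (vertical axis) of the last 3 Mb (red circles), the middle 3 Mb (grey squares) and the first 3 Mb with contacts (blue triangles) of autosomes with each 5% step of other autosomes' length (horizontal axis), with exact 95% intervals. The red line climbs from 0.814 to 1.37 in the vehicle library on the left and from 0.810 to 1.502 in the GW4064 library on the right. Its largest single rise is into the last 5%, from 1.11 (vehicle) and 1.14 (GW4064) in the 5% before.

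The excess was also compared within classes of gene number. Zones with 40 or more genes met each other at 1.84 (1.71 to 1.97) in the vehicle library, against 1.30 for windows of that class over 12 Mb from the end. The single pair of zones with 0 to 9 genes each, chromosomes 17 and 18, stood at 2.08 (1.52 to 2.79) against 1.30. Across unlike classes, zones with 0 to 9 genes met those with 40 or more at 0.718 (0.615 to 0.834), against 0.734 elsewhere, and this was the 1 of 10 class pairs in which the vehicle ends were not above the other windows. In the GW4064 library the ends were above in 10 of 10. Bins that overlap no gene showed the excess too, at 1.56 (1.44 to 1.70) and 1.73 (1.61 to 1.85).

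The bins of all 130 genes with a resembling promoter on another autosome were left out, 13 bins in the end zones and the others outside them. This gave 1.52 in the vehicle library and 1.70 in the GW4064 library. Within the last 1 Mb it gave 2.70 and 3.15. With all bins kept, the 10 chromosome pairs whose end zones share such genes had ratios in the last 1 Mb of 3.61 (2.91 to 4.42) and 4.01 (3.28 to 4.85). The other 161 pairs had 2.79 (2.62 to 2.97) and 3.31 (3.14 to 3.48). With the bins left out, the 10 pairs had 3.13 (2.41 to 3.99) and 3.24 (2.52 to 4.11). The other pairs then had 2.67 (2.50 to 2.85) and 3.14 (2.97 to 3.32), with overlapping intervals in each library. Over the whole 3 Mb with all bins kept, those 10 pairs were not higher in the vehicle library, at 1.45 (1.28 to 1.63) against 1.55 (1.51 to 1.59). In the GW4064 library they had 1.88 (1.69 to 2.09) against 1.73 (1.69 to 1.77), with overlapping intervals. With the bins left out it was 1.34 against 1.53 (vehicle) and 1.77 against 1.69 (GW4064). The zones of chromosomes 8 and 17, whose last genes have the most alike promoters of the 4 printed, had 16 contacts in the vehicle library (0.810 of expectation, 0.463 to 1.32) and 14 in the GW4064 library (0.669, 0.366 to 1.12). Copies without a gene, and repeats, were not identified here, and their part in the excess was not tested.

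Single pairs of zones held a median of 30 contacts in the vehicle library and 31 in the GW4064 library, so their values are coarse. The interval lay above 1 in 83 of 171 pairs in the vehicle library, where 7.77% of all pairs of 3 Mb windows of different autosomes had one, and in 96 of 171 in the GW4064 library, where it was 9.68%. It lay below 1 in 7 and 5 pairs, where 8.51% and 11.2% of all pairs of windows had such an interval. The highest pair over both libraries was that of chromosomes 1 and 5, with 60 contacts in the vehicle library (3.14 times expectation) and 90 in the GW4064 library (4.02 times). Chromosomes 2 and 4 followed with 50 and 56 contacts (3.00 and 4.08 times). Then came 1 and 7 (2.85 and 3.85 times), 5 and 8 (2.98 and 3.08 times) and 6 and 11 (2.32 and 3.63 times).

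The lowest pairs each included the zone of chromosome 17 or 11. Chromosomes 4 and 17 had 5 and 9 contacts (0.338 and 0.586 of expectation), chromosomes 11 and 12 had 6 and 4 (0.539 and 0.382), and chromosomes 11 and 17 had 7 and 10 (0.390 and 0.553). Chromosomes 2 and 17 (0.442 and 0.510) and 11 and 13 (0.424 and 0.588) were also low. In the 5 lowest pairs a gene-rich zone, of chromosome 2, 4 or 11, faced the zone of chromosome 12, 13 or 17, with 10, 23 and 3 genes.

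**Figure D4:**
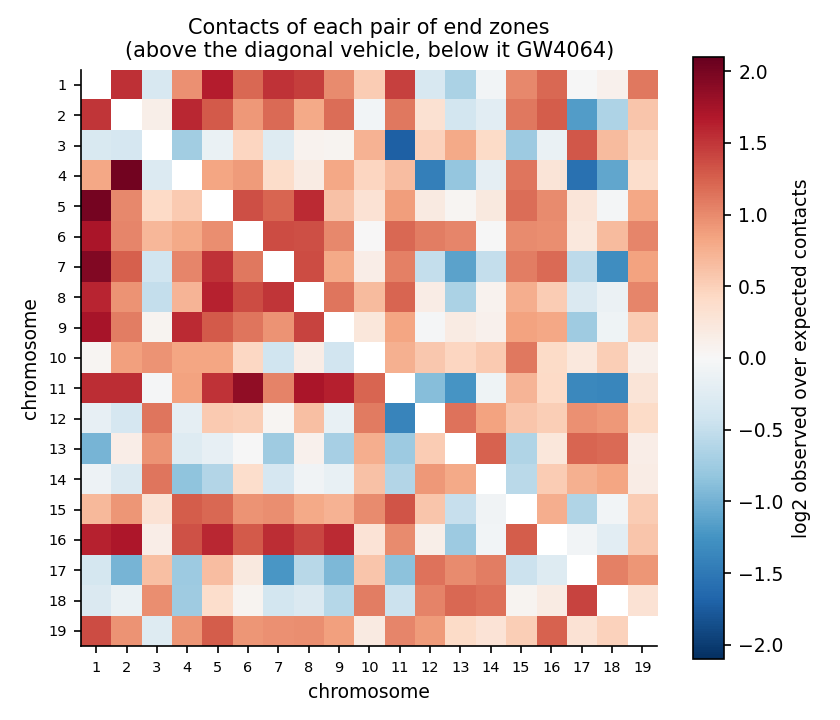
Observed over expected contacts (log2, colour) for each pair of autosomal end zones, with the vehicle library above the diagonal and the GW4064 library below it. Red pairs dominate, with 1 and 5 at 3.14 and 4.02 among the darkest, and the blue cells include chromosomes 4 and 17 at 0.338 and 0.586.

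The end of chromosome X, which the rule leaves out, gave a further value. Its 42 bins with contacts met the autosomal end zones at 1.23 (1.05 to 1.43) in the vehicle library and 1.55 (1.37 to 1.75) in the GW4064 library. The middle of X met them at 0.963 and 1.06, with intervals that include 1.

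Between the libraries, contacts joining end zones were more frequent with GW4064. Scaled to equal totals between autosomes, the GW4064 to vehicle ratio was 1.16 (1.12 to 1.21), and the ratio of the observed over expected values was 1.12 (1.08 to 1.17). Middle windows gave 1.02 (0.958 to 1.08) and centromere-side zones 1.02 (0.992 to 1.05). In the last 1 Mb the ratio was 1.33 (1.23 to 1.44). Scaled instead to equal total contacts, the ratio for the whole end zones was 0.967 (0.933 to 1.00). The change arises because the GW4064 library held 1.26 times as many contacts in all and 1.05 times as many between autosomes. The ratio of the last 1 Mb is not given on that scale. Treatment and library cannot be told apart here.

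Coverage of the zones differed between the libraries in both directions. With total contacts set equal, 12 of 19 end zones were lower with GW4064 and 6 higher, by intervals that exclude 1, with a median log2 ratio of -0.10. For contacts up to 1 Mb alone this depended on the scaling: 13 zones were lower and 6 higher with that class set equal, and 5 lower and 11 higher with total contacts set equal. By all contacts, with their total set equal, 7 of the middle windows were lower and 11 higher, with a median of 0.04. The lowest zones were those of chromosome 11 (33711 contacts with vehicle and 32079 with GW4064, log2 ratio -0.41), chromosome 4 (32604 and 31583, -0.38) and chromosome 7 (36003 and 35644, -0.35). The highest were chromosome 17 (50939 and 76489, 0.25), chromosome 18 (49235 and 69481, 0.16) and chromosome 13 (44981 and 61849, 0.13). Contacts between chromosomes alone, with that class set equal, had a median log2 ratio of 0.00 in the end zones, with 7 lower and 9 higher. Setting total contacts equal would lower each of these values, because contacts between chromosomes were a smaller part of the GW4064 library (21.4% against 25.6%).

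These ratios went down as gene number went up. Pearson's r between gene number and log2 ratio was -0.54 over the 19 end zones and Spearman's rho was -0.70, and over the 785 other 3 Mb windows they were -0.63 and -0.74. The windows share 2 libraries and their depth, so this is a description. The end zone of chromosome 10, with its olfactory receptor cluster, had the most genes and a log2 ratio of 0.01.

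**Figure D5:**
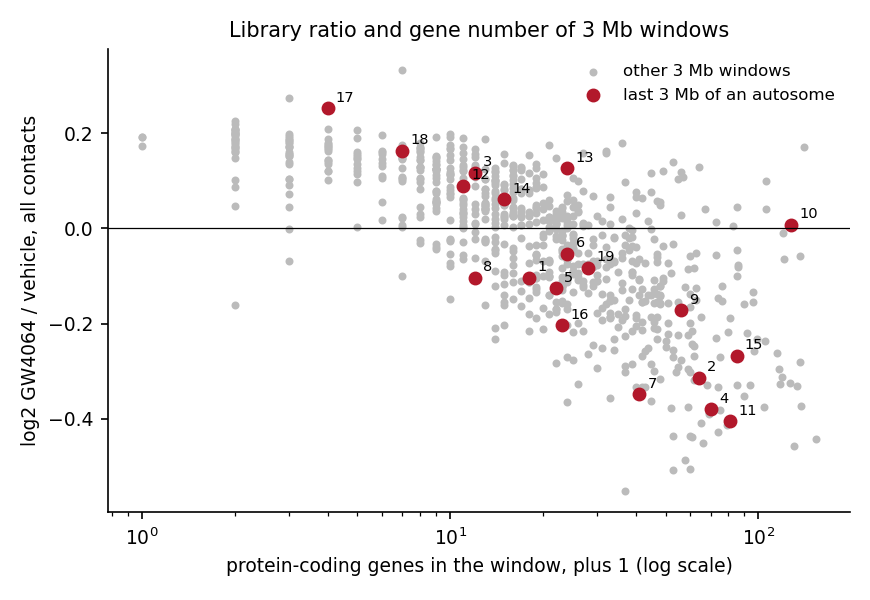
GW4064 to vehicle ratio of all contacts (log2, scaled to equal totals, vertical axis) against the number of protein-coding genes plus 1 (log axis) for the last 3 Mb of each autosome (red, numbered) and all other 3 Mb windows (grey). Red points lie among the grey ones, from chromosome 17 at 0.25 with 3 genes to chromosome 11 at -0.41 with 80.

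Single bins past a fixed fold were few. Of 1091 end zone bins whose contacts summed to 200 or more in the pooled libraries, 25 were lower with GW4064 by 1.5-fold or more with an interval excluding 1, where 1.27% of all 47710 autosomal bins were, and 4 were higher, where 0.0608% were. That is 2.29% and 0.367% of the end zone bins. Of the 25 lower bins 14 lay on chromosome 11, 4 each on chromosomes 4 and 7 and 3 on chromosome 15. The 4 higher bins were all on chromosome 17, and without that chromosome the counts were 25 and 0. Without chromosome 11 they were 11 and 4.

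The lowest bin was chr11:120700001-120750000, with 421 contacts in the vehicle library and 287 with GW4064 (log2 ratio -0.89, -1.11 to -0.67). It holds 6 genes that include Dcxr, an enzyme of sugar alcohol metabolism, and Rac3, a small GTPase. Next came chr11:119250001-119300000 (579 and 420 contacts, -0.80), with the glycogen-degrading enzyme gene Gaa, and chr11:120500001-120550000 (508 and 379 contacts, -0.76), with the glucagon receptor gene Gcgr. The highest was chr17:92300001-92350000, with no protein-coding gene, 353 and 1156 contacts (1.38, 1.21 to 1.55). The next 2 on that chromosome, also without genes, had log2 ratios of 0.70 and 0.66.

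By coverage, the deepest end zone bin was chr13:119600001-119650000 with 1634 and 1781 contacts, at Tmem267 and the chemokine gene Ccl28. It was followed by chr15:103850001-103900000 at Mucl2 (1373 and 1748) and chr3:159500001-159550000 at Depdc1a (1199 and 1704). The shallowest used bins lay on chromosome 9 (15 and 17 contacts, 345 kb from the end), chromosome 8 (21 and 23, 51.2 kb) and chromosome 14 (25 and 38, 52.2 kb).

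Gene loci were compared by local contacts, those of the locus's bins with other bins up to 1 Mb away, scaled to equal totals of that class. Of 702 end zone loci with at least 100 local contacts, 364 were lower with GW4064, where 41.5% of all 20197 autosomal loci were, and 32 were higher, where 5.33% were. The median log2 ratio was -0.30 in the end zones and -0.17 over all loci. Contacts up to 1 Mb were a larger part of the GW4064 library, so that setting total contacts equal instead raises each log2 value of a locus by 0.17. On that scale 235 end zone loci were lower and 113 higher, and of all loci 21.9% were lower and 20.9% higher. The counts and values below use the first scale, and each list's count on the second follows it. Genes in 1 bin share its contacts, so genes of the same list with overlapping bins were counted as 1 locus below. A bin with genes of different lists counts in each of those lists.

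The bile acid and sterol list had 6 of its 15 genes in end zones, at 5 separate loci, of which 4 were lower, with a median log2 ratio of -0.55. With total contacts set equal 3 were lower and none higher. Cyp8b1, the 12-alpha-hydroxylase that sets the make-up of the bile acid pool and is known to fall when FXR is activated, had 153 local contacts with vehicle and 147 with GW4064 (-0.56, -0.90 to -0.23). Dhcr7, the enzyme of the last step of cholesterol synthesis, had 134 and 126 (-0.59, -0.96 to -0.23). Soat2, which esterifies cholesterol, and Csad, which makes taurine for bile acid conjugation, lie next to each other on chromosome 15 and had 175 and 170 (-0.55) and 324 and 314 (-0.55). Fgf15, the hormone that the ileum secretes in response to FXR, had 233 and 255 (-0.38, -0.64 to -0.11), and its interval includes 0 with total contacts set equal (-0.20, -0.47 to 0.06). Hmgcs1, an early enzyme of cholesterol synthesis, had 180 and 263 (0.04), with an interval of -0.24 to 0.32.

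Promoters of Dhcr7 and Cyp8b1 are shown as examples and were picked after their values were seen. The table holds 3 promoters of Dhcr7, of which the first is printed. Both are printed 5′ to 3′ along the strand of the gene, the + strand for Dhcr7 and the - strand for Cyp8b1. Capitals mark TTAGGG on either strand, and the letters TGTTTAC are in neither printed window.
Dhcr7, chr7:143822917-143823166: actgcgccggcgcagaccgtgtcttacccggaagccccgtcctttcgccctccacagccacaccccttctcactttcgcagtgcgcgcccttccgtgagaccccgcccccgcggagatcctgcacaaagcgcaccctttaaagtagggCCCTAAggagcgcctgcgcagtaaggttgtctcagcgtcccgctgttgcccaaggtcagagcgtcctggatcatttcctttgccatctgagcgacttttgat
Cyp8b1, chr9:121916306-121916555: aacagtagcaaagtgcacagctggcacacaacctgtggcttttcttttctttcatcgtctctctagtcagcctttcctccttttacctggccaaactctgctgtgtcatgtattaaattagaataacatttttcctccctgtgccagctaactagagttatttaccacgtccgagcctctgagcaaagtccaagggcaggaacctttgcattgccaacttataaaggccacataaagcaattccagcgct
The match in Dhcr7 starts 102 bases before the start site, and the other 2 promoters of Dhcr7 hold none. Cyp8b1 lies 2679 kb and Dhcr7 1593 kb from the chromosome end, so both are in the part of the zone where the excess of contacts between ends is smaller.

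Of the lipid, glucose and energy list, 15 of 18 loci were lower and none higher, with a median of -0.50. With total contacts set equal it was 14 lower and 1 higher, Nnt (0.24, 0.05 to 0.43). The lowest were Dcxr (143 and 104 local contacts, -0.97) and Gaa (130 and 97, -0.93), in the bins named above. The highest were Nnt, the mitochondrial transhydrogenase (387 and 576, 0.07, interval -0.12 to 0.26), and Cth, which makes cysteine (443 and 586, -0.10, interval -0.28 to 0.08). Of the 14 loci of nuclear receptors and transcription factors, 12 were lower and none higher, with a median of -0.48, and 9 were lower with total contacts set equal. Mafg, a small Maf factor known to be induced by FXR, shares its bin with Pycr1 of the lipid, glucose and energy list. That bin stood at -0.91 (179 and 135) and the immediate early receptor gene Nr4a1 at -0.80 (132 and 108). Erg stood at -0.22 and Gata5 at -0.24, the latter with an interval that includes 0.

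Housekeeping and ribosome genes had 8 of 13 loci lower and none higher, with a median of -0.41, and 6 were lower with total contacts set equal. P4hb and Arhgdia, in 1 bin on chromosome 11, stood at -0.81 (200 and 162), while Adrm1 (0.08) and Eif3a (-0.12) had intervals including 0. Imprinted and growth genes had 5 lower and 1 higher of 13 (median -0.19), from Cd81 (-0.69) and Ccnd1 (-0.55) to Fgf14, whose locus is the last on chromosome 14 (0.19, 0.10 to 0.27). The value of Fgf10 was 0.08, with an interval that includes 0. With total contacts set equal 2 loci of this list were lower and 2 higher, the latter Fgf14 (0.36) and Fgf10 (0.25, 0.07 to 0.43).

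The neuronal, leukocyte and patterning lists had medians nearer 0, and their balance depended on the scaling. Neuronal genes had 4 lower and 2 higher of 13 loci, with a median of -0.04, but 1 lower and 6 higher with a median of 0.13 when total contacts were set equal. The adhesion gene Negr1 (0.12) was among the higher, and the synaptic scaffold gene Shank2 (-0.51) and the elongation factor gene Eef1a2 (-0.36) were the lowest. Leukocyte genes had 5 lower of 14 and none higher, with a median of -0.06, against 3 lower and 3 higher with a median of 0.11 on the other scale. Cd7 (-0.62) and Itgb7 (-0.54) were lowest. Developmental patterning genes had only 6 separate loci, 2 lower and 1 higher, with a median of -0.11, against 1 lower and 2 higher with a median of 0.06. The bin of Hoxc4 and Hoxc5 stood at -0.69, Sp8 at 0.19 (0.01 to 0.38) and Emx2 at 0.18, with an interval that includes 0.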

How the data were processed

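The authors deposited, for each library, a matrix of raw contact counts over pairs of 50 kb bins, and a table of bin numbers (an index with no unit), the same for both libraries. Per the submitters' processing notes, HiC-Pro and Bowtie2 2.2.9 were used with mm10. The sources used here do not give read filters, duplicates or pooling. A bin's coverage is the sum of its contacts, those inside the bin counted once. Expected contacts between zones came from the totals within each chromosome pair; these totals contain the excess itself, so the ratio is slightly low, as checked on simulated data. Intervals (95%) use exact formulas that take counts as independent: Clopper-Pearson for shares, Poisson for observed over expected, conditional binomial for ratios. Zone shares and coverage ratios count contacts inside the zone at both bins, so their intervals are too narrow. No test was possible with 1 library per group. Genes, promoters and microRNAs are RefSeq's (GRCm38.p6). Named were all bile acid list genes in the zones, the 2 highest and 2 lowest loci of each other list, the 3 highest and 3 lowest zones and bins, and 5 zone pairs at each extreme; promoters and microRNAs were picked after their values were seen. Members and lists were chosen with earlier results of these data known. Values of some genes that this rule names are not reported here. Base content of bins was not analysed here. Python 3.11.15, numpy 2.4.6, pandas 2.3.3 and scipy 1.17.1 were used.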

Additional observations from a re-analysis of the deposited data

How the results depend on the processing

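No paired analysis was possible because each group has 1 library and the labels share no replicate numbers. Zones of 1 Mb gave end-to-end ratios of 2.85 (vehicle) and 3.35 (GW4064) and a library ratio of 1.33, and zones of 5 Mb gave 1.33, 1.45 and 1.10. Contacts per bin pair with no correction for coverage gave 2.17 and 2.52. With the expected number taken from bins outside the zones it was 1.60 and 1.82, and without the last 500 kb 1.35 and 1.48, with a library ratio of 1.10; both were added after seeing the data. Scaled to equal total contacts the library ratio of the 3 Mb zones was 0.967. By contacts between chromosomes alone, 0 of 19 end zones had lower coverage than the middle in either library. With local contacts scaled to total contacts, 5 zones were lower and 11 higher with GW4064. At 1.2-fold 299 end zone bins (27.4%) were lower and 40 (3.67%) higher, against 14.4% and 3.31% of all autosomal bins. By local contacts 75 (7.30%) were lower and 6 (0.584%) higher, against 3.28% and 0.196%. Leaving out each autosome in turn kept the end-to-end ratio within 1.503 to 1.582 (vehicle) and 1.68 to 1.79 (GW4064), the library ratio within 1.13 to 1.19, the zones lower with GW4064 within 11 to 12 and those higher within 5 to 6, lower coverage at 13 to 14 (vehicle) and 12 to 13 (GW4064) chromosomes, and a higher share between chromosomes at 17 to 18. Counting each bin pair once (1.54 and 1.72) and leaving out bins of genes with resembling promoters were also added after seeing the data. The other 54 values of these results under the alternatives stayed within 1.5 times the count or, for ratios, within the interval. A change of direction was looked for only in the ratios and in the coverage of end against middle. Depth limits single zone pairs, of which the sparsest held 2 contacts in the vehicle library.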
